A study of Mus musculus with 4 samples.

Results

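The genes described are 7 parts of the machinery by which a cell answers corticosterone, the main glucocorticoid of the mouse: the glucocorticoid receptor Nr3c1, the mineralocorticoid receptor Nr3c2, the enzymes Hsd11b1 and Hsd11b2, and the p160 coactivators Ncoa1, Ncoa2 and Ncoa3. They were taken by symbol from the 31053 genes in the count matrices. The matrices come from brain vascular-associated cells (BVACs), which were pulled from dissociated brains with CD31 antibody on magnetic beads and sequenced as single cells. Wild-type male C57BL/6 mice of 12 to 14 weeks had gone through 14 days of chronic social defeat (CSD) by an aggressive CD-1 mouse. A partition stood between them except during a short daily encounter. Home cage (HC) animals also lived beside a CD-1 mouse over 14 days, but their partition was never lifted. Cells of 4 mice of a condition were pooled for each of 4 libraries, CSD 1, CSD 2, HC 1 and HC 2, so 16 mice gave n = 2 per condition and the spread between mice was not measured. Cerebellum, striatum, brainstem and olfactory bulbs had been removed, so the cells come from the remaining brain.

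Corticosterone crosses the membrane and binds both receptors, which sit in the cytoplasm with chaperones and move to the nucleus to act on genes. The mineralocorticoid receptor binds corticosterone with the higher affinity and is largely occupied at resting levels, whereas the glucocorticoid receptor fills as levels rise under stress. Hsd11b1 regenerates active corticosterone from its inert keto form inside the cell, and Hsd11b2 does the reverse, which protects the mineralocorticoid receptor in aldosterone target tissues. Ncoa1, Ncoa2 and Ncoa3 bind the hormone-loaded receptors and bring in histone acetyltransferases.

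The libraries held 27297599 to 30361474 UMIs (unique molecular identifiers, counted once per captured mRNA molecule). Of 14415 cells that passed the filters, 12015 (83.35%) carried the markers of 1 class clearly enough to be gated, and 9 classes with at least 10 cells in every library were compared. They held 4822 endothelial cells (ECs), 4324 microglia, 1157 choroid plexus cells, 432 pericytes, 381 arterial smooth muscle cells, 354 astrocytes, 123 ependymal cells, 107 T cells and 69 fibroblasts. In each of these classes gate markers of no other class stood among its 10 leading genes, and the genes described here are not gate markers. The astrocyte class was led by Fabp7, Gria2 and Npy. In the paper, Npy and Fabp7 are the signature genes of a separate cluster of Npy+ cells. The T cell class was led by Ccl5, Trbc2 and Nkg7, with Xcl1 and Gzma also among its 10 leading genes. Whether these classes mix cell types was not tested. Median depth differed by class and library, at 862 to 1462 UMIs per EC, 1854 to 5014 per microglial cell and 10402 to 22425 per choroid plexus cell. Pairs of libraries shared 0 to 9 cell barcodes. A level is given in CPM, the UMIs of a gene per 1000000 UMIs of the class in a library, and as the mean ± SD of 4 libraries unless said otherwise. The 3′ tags give 1 UMI per molecule whatever the length of the transcript. Because free RNA in the droplets adds UMIs to every cell, the level in barcodes of 10 to 100 UMIs was measured beside it.

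Nr3c1 (ENSMUSG00000024431), on chromosome 18, was the more abundant receptor, with 4582 UMIs in gated cells against 293 for Nr3c2. In ECs it stood at 197 CPM in CSD 1, 217 in CSD 2, 253 in HC 1 and 251 in HC 2, from 359 to 470 UMIs per library. In microglia the libraries, taken in this order, gave 193, 145, 196 and 160.02 CPM. Choroid plexus cells, the epithelium that makes cerebrospinal fluid, were at 27.7, 29.2, 31.6 and 26.6 CPM. All 4 choroid plexus values lay below the 60.1 to 69.01 CPM of free RNA, whereas all EC and microglial values lay above it.

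Ordered by mean, Nr3c1 was at 229 ± 27.5 CPM in ECs, 214 ± 99.1 in T cells, 194 ± 71.3 in fibroblasts, 174 ± 24.9 in microglia and 159 ± 38.6 in pericytes. It then stood at 98.1 ± 20.7 in astrocytes, 88.1 ± 18.4 in arterial smooth muscle, 41.7 ± 30.4 in ependymal cells and 28.8 ± 2.17 in choroid plexus. Every class overlapped its neighbour in this order over the libraries. The fibroblast and T cell values rest on 8 to 19 UMIs per library, and the ependymal ones on 1 to 9.

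In edgeR's quasi-likelihood test with Benjamini-Hochberg adjustment, Nr3c1 was higher in ECs than in the mean of the other classes by 1.04 ± 0.12 on the log2 scale (SE, adjusted p = 1.96e-10) and higher in microglia by 0.97 ± 0.12 (adjusted p = 1.14e-09). In choroid plexus it was lower, with a log2 difference of -1.43 ± 0.15 (adjusted p = 7.14e-12). In ependymal cells the difference was -1.99 ± 0.29 (adjusted p = 6.32e-08), which a stricter gate did not call (-2.74, adjusted p = 0.0851). That gate left 1 to 5 ependymal cells per library. T cells were higher by 0.86 ± 0.25 (adjusted p = 0.00651), a call that was lost without CSD 1 (0.65, adjusted p = 0.104) and was not made against the pooled other gated cells (0.44 ± 0.28, adjusted p = 0.302). Such calls are common here: 46.6% of all genes tested differed in ECs, 58.2% in microglia, 61.7% in choroid plexus, 41.6% in ependymal cells, 32.2% in T cells, 38.5% in arterial smooth muscle, 35.3% in astrocytes, 27.1% in pericytes and 15.4% in fibroblasts. Nr3c2 and Hsd11b2 did not pass the filter on low counts of this test. Hsd11b1 passed it by its level in the classes where it was high, so its values from this test are not used.

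Taken pairwise, ECs and microglia did not differ in Nr3c1 beyond their error (log2 difference 0.07, 95% interval -0.25 to 0.40, edgeR, adjusted p = 0.704). Against choroid plexus, Nr3c1 was higher in ECs by 2.18 ± 0.14 (adjusted p = 1.10e-54) and in microglia by 2.09 ± 0.16 (adjusted p = 1.99e-36). In these pairs 57.7%, 72.1% and 74.2% of all genes passed the threshold. The fits were scaled by the trimmed mean of M values (TMM), which allows for a few genes that take up much of a class's RNA, and so differ from ratios of CPM. The pairs were chosen after the levels had been seen.

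The share of cells with an Nr3c1 UMI depends on depth. Without correction it was 26.7% ± 5.59 in ECs, 33.4% ± 7.28 in microglia and 32.1% ± 6.84 in choroid plexus. When each cell was thinned to 1000 UMIs, which left out 2179 ECs, 510 microglia and 70 choroid plexus cells of lower depth, the shares were 19.8% ± 2.28, 15.9% ± 2.15 and 2.79% ± 0.398. At equal depth the choroid plexus lay below ECs and microglia in every library. Thinned shares and CPM are relative to all UMIs of a cell, of which choroid plexus cells held the most, and do not give transcripts per cell. Unthinned and over all libraries, the choroid plexus held 490 Nr3c1 UMIs in 1157 cells, ECs 1724 in 4822 and microglia 1858 in 4324. In ECs 933 of the 1240 positive cells held a single Nr3c1 UMI, and the highest count in a cell was 12.

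**Figure D1:**
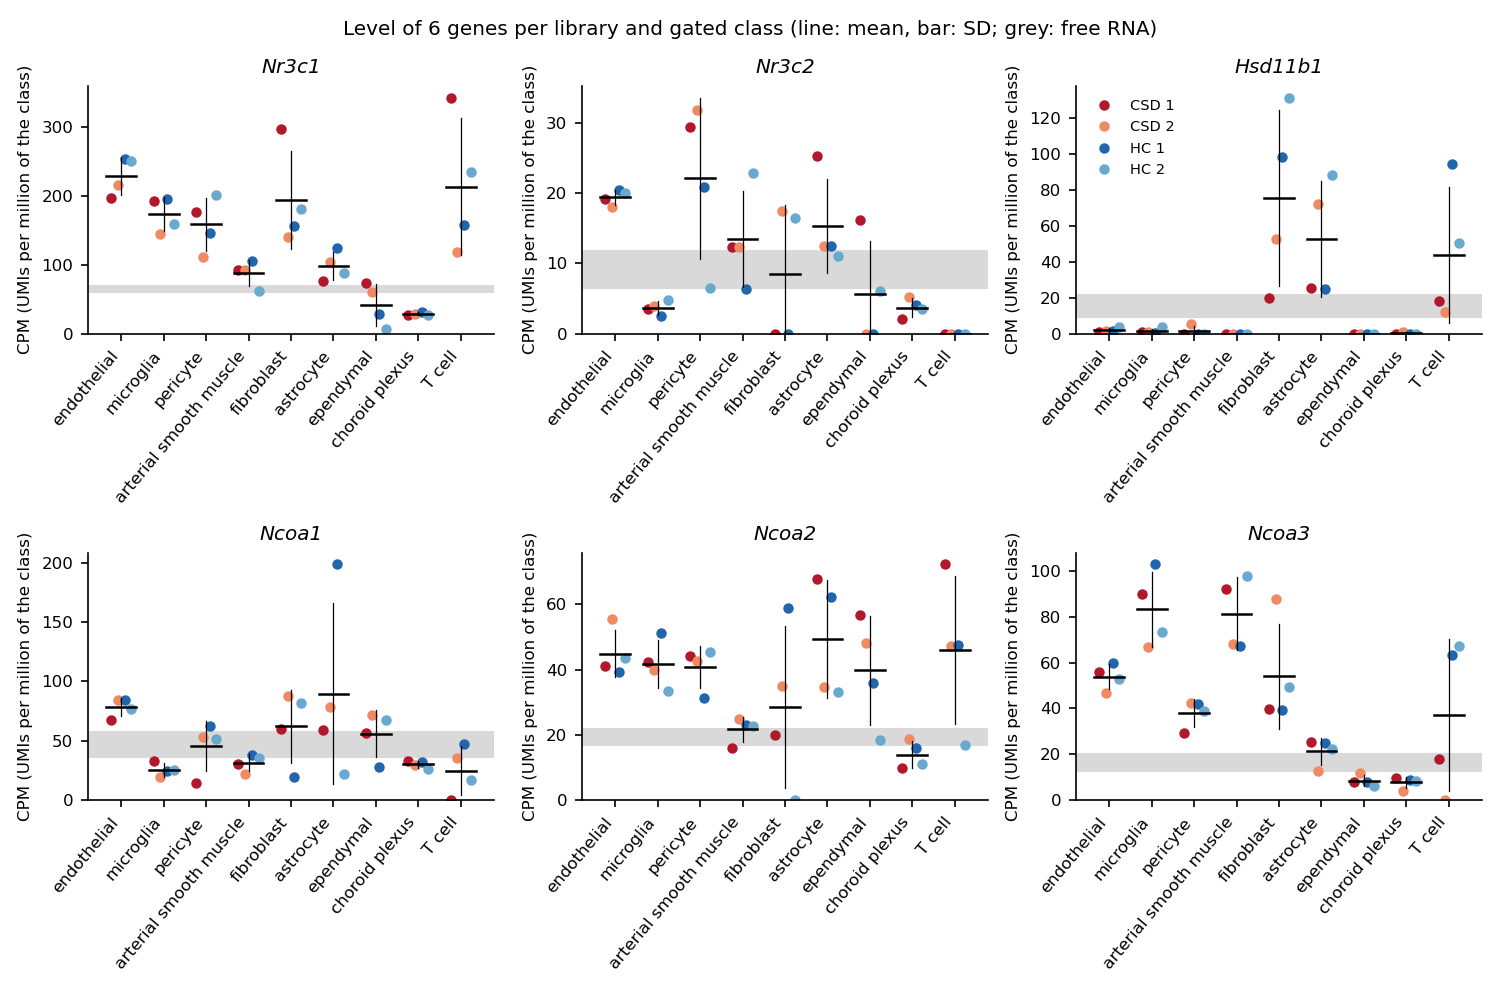
The level of Nr3c1, Nr3c2, Hsd11b1, Ncoa1, Ncoa2 and Ncoa3 in CPM (vertical axis) in 9 gated classes (horizontal axis). Each point is a library, the horizontal line is the mean of 4 libraries, the vertical line is the SD (drawn no lower than 0) and the grey band is the range of free RNA over the libraries. Nr3c1 had its highest mean in ECs at 229 ± 27.5 CPM, and the means of Hsd11b1 lay above the grey band in fibroblasts, astrocytes and T cells.

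Nr3c2 (ENSMUSG00000031618) spans 345571 bases of chromosome 8 (chr8:76899442-77245012, plus strand, GRCm38) and overlaps Gm23260 on the same strand. Of the 7 genes, 3 had a promoter window of 300 bases in the RefSeq table for GRCm38.p6, namely Nr3c2, Hsd11b1 and Ncoa1. The stretch before the first annotated exon base of the Nr3c2 window is shown so that it can be set beside that of Ncoa1, a gene found in every class, with CpG dinucleotides, the sites of DNA methylation, in capitals. The 2 stretches are not alike in position. That of Nr3c2 lies inside the annotated span of the gene, and that of Ncoa1 just before the annotated start of the gene.
Nr3c2, chr8:76902080-76902287, plus strand: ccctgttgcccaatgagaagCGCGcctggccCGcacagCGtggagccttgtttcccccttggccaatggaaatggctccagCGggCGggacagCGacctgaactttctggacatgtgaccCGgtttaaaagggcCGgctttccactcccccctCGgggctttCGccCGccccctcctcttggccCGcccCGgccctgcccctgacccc
The whole window held 17 CpG and 65.7% G and C, and 68.6% of 32851 windows held fewer CpG. The Hsd11b1 window held 6 CpG, with 43.6% of windows below it, and lay wholly inside annotated exons of that gene. None of the 3 windows held the palindromic element of the receptors searched for, GNACA and TGTNC with 3 bases between them, which reads the same on both strands and occurred in 0.475% of all windows.

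Nr3c2 was highest in pericytes and ECs. In ECs the level was 19.2 CPM in CSD 1, 18.01 in CSD 2, 20.5 in HC 1 and 20.1 in HC 2, from 35 to 38 UMIs each. Microglia were at 3.50, 3.92, 2.46 and 4.82 CPM in those libraries, from 6 to 11 UMIs. Every EC library lay above every microglial one, and the microglial values lay below the 6.52 to 11.8 CPM of free RNA.

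Pericytes, the mural cells of capillaries, had a mean of 22.2 ± 11.5 CPM, from 1 to 6 UMIs per library, and overlapped ECs at 19.4 ± 1.10. Astrocytes (15.4 ± 6.71), arterial smooth muscle (13.5 ± 6.87), fibroblasts (8.48 ± 9.81) and ependymal cells (5.58 ± 7.65) followed, each overlapping the next. Choroid plexus was at 3.72 ± 1.31 and microglia at 3.68 ± 0.980. No Nr3c2 UMI was found in T cells, where a count of 0 over the 4 libraries allows up to 11.4 CPM, and the microglial values, but not the EC values, lay below that limit.

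Against the pooled other gated cells of the same library, with genes of at least 10 UMIs, Nr3c2 was 3.40-fold higher in ECs (95% interval 2.46 to 4.71, edgeR, adjusted p = 1.57e-06). Most UMIs of that pool came from choroid plexus (17205681) and microglia (10667650), both low in Nr3c2. Arterial smooth muscle, the next largest, gave 1667653. The fold is thus mainly a contrast with these low classes and not with pericytes, whose Nr3c2 values overlapped those of ECs. Nr3c2 was lower in microglia (log2 difference -1.23 ± 0.28, adjusted p = 0.00157) and in choroid plexus (-0.81 ± 0.25, adjusted p = 0.00233). The choroid plexus call was lost without CSD 1 (-0.58, adjusted p = 0.0721) and with a stricter gate (-0.89, adjusted p = 0.3297), which moved the microglial difference to -2.01. In pericytes the difference was 0.98 with a 95% interval of -0.17 to 2.14 (adjusted p = 0.244), and in arterial smooth muscle 0.80 with an interval of -0.02 to 1.62 (adjusted p = 0.122). Directly between ECs and microglia, Nr3c2 was higher in ECs by 2.06 ± 0.26 (adjusted p = 5.92e-07).

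Over the 6 genes tested against pooled cells, 24 tests passed the threshold. The share of all 16251 genes that passed was 57.4% for ECs, 61.7% for microglia, 74.3% for choroid plexus, 25.1% for pericytes, 38.4% for arterial smooth muscle, 11.5% for fibroblasts, 31.3% for astrocytes, 38.1% for ependymal cells and 20.4% for T cells. Against this reference Nr3c1 was also called lower in astrocytes (-0.79 ± 0.31, edgeR, adjusted p = 0.0351) and arterial smooth muscle (-0.44 ± 0.18, adjusted p = 0.0373), and both calls were lost when any 1 library was left out.

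The balance of the receptors was followed as the share of Nr3c2 among the UMIs of both, which needs no scaling between classes. In ECs it was 8.88% in CSD 1 (exact binomial 95% interval 6.27 to 12.1), 7.68% in CSD 2 (5.46 to 10.4), 7.48% in HC 1 (5.35 to 10.1) and 7.41% in HC 2 (5.24 to 10.1). In microglia it was 1.78% in CSD 1 (0.890 to 3.16), 2.63% in CSD 2 (1.32 to 4.65), 1.24% in HC 1 (0.457 to 2.68) and 2.93% in HC 2 (1.47 to 5.17). The EC share exceeded the microglial share in 4 of 4 libraries, by 5.72 ± 1.18 percentage points (SD). An exact paired permutation test over the 4 libraries gave p = 0.125, the smallest it can give (adjusted p = 0.25 over 2 such comparisons). Intervals cover counting error only.

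The share was 11.3% ± 3.37 in choroid plexus, 13.03% ± 7.84 in pericytes, 14.1% ± 9.06 in arterial smooth muscle and 14.0% ± 7.38 in astrocytes. ECs minus choroid plexus gave -3.45 ± 3.93 points (exact paired permutation p = 0.25). Both receptors lay below free RNA in every choroid plexus library, and the share in free RNA itself was 9.64, 16.4, 11.6 and 12% in CSD 1, CSD 2, HC 1 and HC 2, beside 6.94, 15.2, 11.4 and 11.8% in choroid plexus. The part of free RNA in the choroid plexus share was not tested. The microglial and EC shares lay below that of free RNA in each library.

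Of the 140 ECs with an Nr3c2 UMI, 57 (40.7%) also held an Nr3c1 UMI, against 25.3% of the other ECs. The cells with Nr3c2 were deeper, with a median of 1517.5 UMIs against 1075.5, and the part of depth in this difference was not tested.

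**Figure D2:**
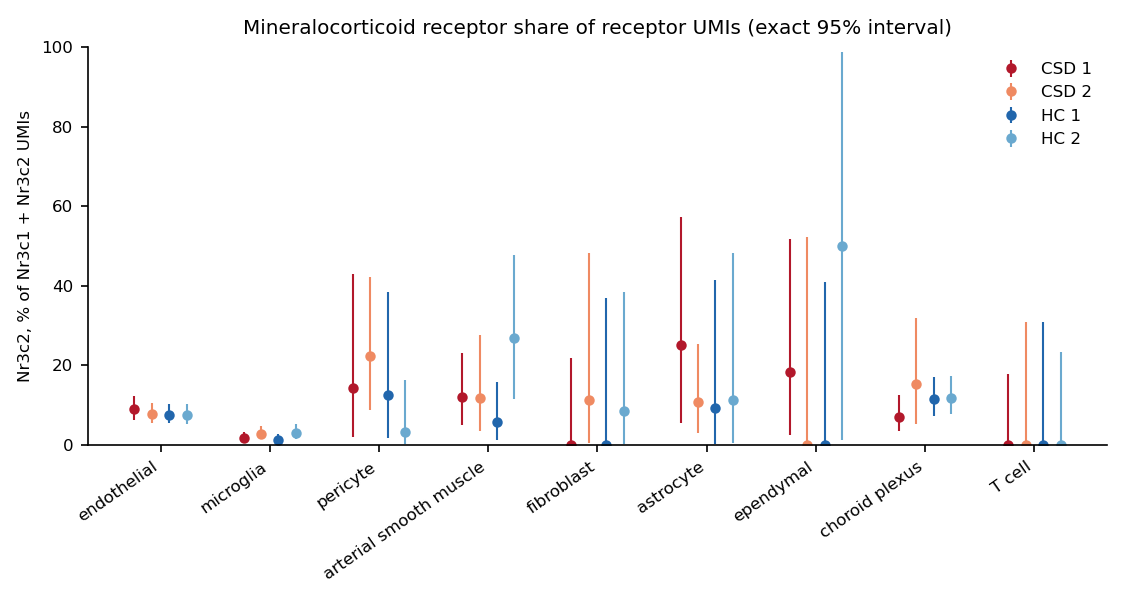
The share of Nr3c2 among the UMIs of Nr3c1 and Nr3c2 in percent (vertical axis) in 9 gated classes (horizontal axis), with a point per library and its exact binomial 95% interval. ECs (7.41 to 8.88%) and microglia (1.24 to 2.93%) did not overlap, and the intervals of the small classes are wide.

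The sources used here do not say how strand was treated in counting, and the part of overlapping genes in the counts was not tested. Hsd11b1 (ENSMUSG00000016194) lies at chr1:193221634-193264075 on the minus strand of GRCm38, where it overlaps Gm38118 on the same strand and Lamb3 on the other. It gave 99 UMIs in gated cells and stood out in fibroblasts, which form the meninges and vessel sheaths, in astrocytes and in T cells. Fibroblasts were at 19.9 CPM in CSD 1, 52.5 in CSD 2, 98.2 in HC 1 and 131 in HC 2, from 1, 3, 5 and 8 UMIs. Astrocytes were at 25.4, 72.2, 24.8 and 88.5 CPM from 3, 23, 2 and 8 UMIs. T cells were at 18.1, 11.8, 94.8 and 50.5 CPM from 1, 1, 6 and 3 UMIs.

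In the other 6 classes compared it was low. ECs averaged 2.02 ± 1.28 CPM, pericytes 1.33 ± 2.66, microglia 1.32 ± 1.47 and choroid plexus 0.261 ± 0.522. No UMI was found in arterial smooth muscle, where a count of 0 over the 4 libraries allows up to 1.80 CPM, or in ependymal cells, where it allows up to 4.83 CPM. Free RNA held 14.1, 21.7, 9.07 and 13.5 CPM of Hsd11b1 in CSD 1, CSD 2, HC 1 and HC 2. In each library this was more than in all gated cells together, at 1.09, 4.81, 1.63 and 3.14 CPM. The 4 fibroblast and the 4 astrocyte values all exceeded the free RNA of their own library, as did 3 of the 4 T cell values.

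Cells with an Hsd11b1 UMI made up 12 of 69 fibroblasts, 24 of 354 astrocytes and 7 of 107 T cells, against 15 of 4822 ECs and 13 of 4324 microglia. After thinning to 1000 UMIs the share was 8.55% ± 3.48 in fibroblasts, 4.91% ± 1.62 in astrocytes, 3.37% ± 3.42 in T cells, 0.126% ± 0.0942 in ECs and 0.135% ± 0.147 in microglia. In T cells 4 of the 7 positive cells came from HC 1.

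Of the positive T cells 6 held Nkg7, a cytotoxic lymphocyte gene, as did 77 of all 107 T cells. In the astrocyte class 1 of the 24 positive cells held the neuropeptide gene Npy, which was found in 33 of its 354 cells. Positive astrocytes held an Nr3c1 UMI in 9 of 24 cells and positive fibroblasts in 4 of 12, while 0 of the 7 positive T cells did. Of the cells without Hsd11b1, 12.7% of astrocytes, 40.4% of fibroblasts and 41% of T cells held Nr3c1. Positive astrocytes were deeper than the others, with a median of 1914.5 UMIs against 1046.5. These differences and the part of depth in them were not tested.

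Against the pooled other gated cells, Hsd11b1 was higher in fibroblasts by 4.51 ± 0.79 on the log2 scale (edgeR, adjusted p = 4.94e-07), in astrocytes by 4.56 ± 0.55 (adjusted p = 2.09e-15) and in T cells by 3.85 ± 0.81 (adjusted p = 2.61e-05). The T cell difference was lost without HC 1 (2.81, adjusted p = 0.112) and was 4.62 without CSD 2. In ECs the difference was -0.78 with a 95% interval of -1.81 to 0.25 (adjusted p = 0.180). Choroid plexus (1 UMI) and arterial smooth muscle (0 UMIs) were called lower, but the second of these calls was lost when any 1 library was left out and both were lost with a stricter gate (adjusted p = 0.0712 and 0.283).

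**Figure D3:**
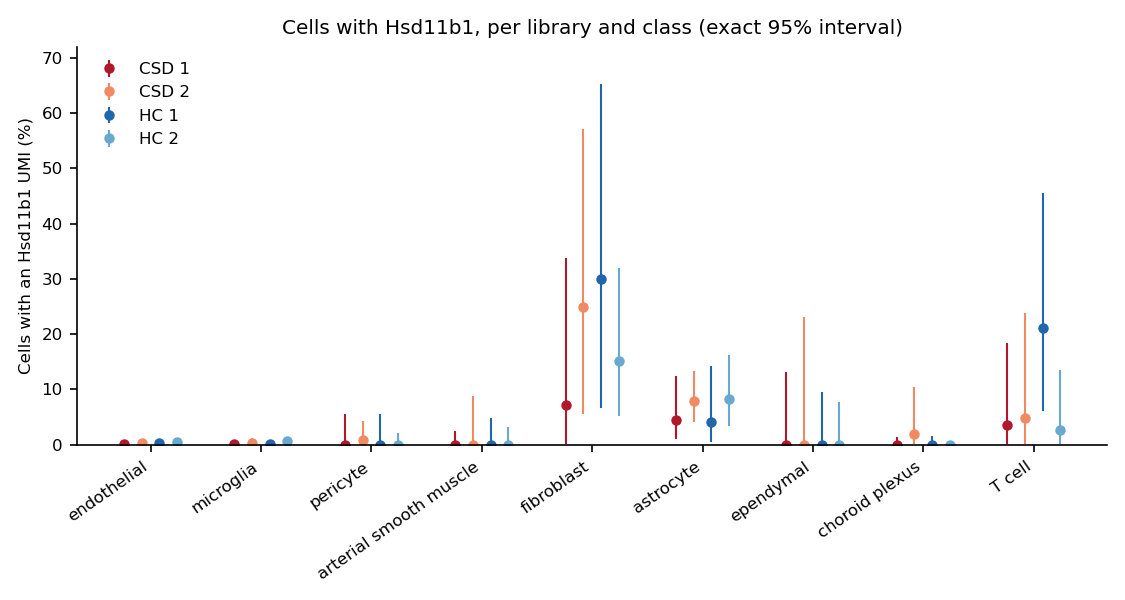
The share of cells with at least 1 Hsd11b1 UMI in percent (vertical axis) in 9 gated classes (horizontal axis), unthinned, with a point per library and its exact binomial 95% interval. Fibroblasts ranged from 7.14 to 30.0%, astrocytes from 4.17 to 8.24% and T cells from 2.56 to 21.1%, while ECs stayed at 0.299% ± 0.0997.

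Hsd11b2 (ENSMUSG00000031891, chr8:105518755-105523988, plus strand, GRCm38) was barely detected, with 5 UMIs in 12015 gated cells. Microglia held 3 of them, ECs 1 and choroid plexus 1, and free RNA held 0. No class difference could be tested at this depth.

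Ncoa1 (ENSMUSG00000020647) lies at chr12:4247362-4477182 on the minus strand of GRCm38. Its window held 49 CpG and 84.7% G and C, and 98.98% of windows held fewer CpG. The part before its first annotated exon base is shown with CpG in capitals.
Ncoa1, chr12:4477183-4477432, minus strand: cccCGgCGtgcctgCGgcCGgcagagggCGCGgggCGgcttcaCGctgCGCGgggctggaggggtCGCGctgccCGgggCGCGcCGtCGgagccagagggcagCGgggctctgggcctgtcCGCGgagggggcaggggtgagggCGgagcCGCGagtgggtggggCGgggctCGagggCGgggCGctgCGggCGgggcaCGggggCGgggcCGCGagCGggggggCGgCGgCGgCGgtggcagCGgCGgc
Ncoa1, also known as SRC-1, was at 67.9 CPM in CSD 1, 84.2 in CSD 2, 84.6 in HC 1 and 76.97 in HC 2 in ECs, and at 32.8, 19.2, 24.2 and 25.4 CPM in microglia. The libraries of the 2 classes did not overlap, and Ncoa1 was higher in ECs than in microglia by 1.30 ± 0.16 (edgeR, adjusted p = 4.65e-07). Against the mean of the other classes it was higher in ECs (0.76 ± 0.16, adjusted p = 7.93e-05) and lower in microglia (-0.68 ± 0.19, adjusted p = 0.00164), the latter lost without CSD 2 (-0.49, adjusted p = 0.0648).

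Astrocytes had the highest mean of Ncoa1 at 89.7 ± 76.4 CPM with a range from 22.1 to 199. Their call against the mean of the other classes (1.04 ± 0.29, edgeR, adjusted p = 0.00377) was lost without HC 1 (0.54, adjusted p = 0.229) and without the filter on low counts (0.73, adjusted p = 0.0510), and was not made against the pooled other gated cells (0.54 ± 0.32, adjusted p = 0.206). ECs (78.4 ± 7.83), fibroblasts (62.2 ± 30.9), ependymal cells (55.96 ± 19.8), pericytes (45.6 ± 21.2), arterial smooth muscle (31.4 ± 7.27), choroid plexus (30.2 ± 2.94), microglia (25.4 ± 5.59) and T cells (24.9 ± 20.8) followed, each overlapping its neighbour. The free RNA range of Ncoa1, 36.6 to 57.1 CPM, lay above every microglial and choroid plexus value.

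Ncoa3 (ENSMUSG00000027678, chr2:165992636-166073242, plus strand), which overlaps Sulf2 on the other strand, had the opposite order in ECs and microglia. Microglia were at 90.1 CPM in CSD 1, 67.0 in CSD 2, 103 in HC 1 and 73.2 in HC 2. Arterial smooth muscle was at 92.2, 68.2, 67.4 and 97.9 CPM and ECs at 55.9, 46.7, 59.8 and 52.98 CPM in those libraries. Every microglial and arterial smooth muscle value lay above every EC value. Choroid plexus was at 9.50, 4.17, 8.91 and 8.35 CPM, below the 12.6 to 20.3 CPM of free RNA. Fibroblasts (53.96 ± 22.9), pericytes (38.2 ± 6.04) and T cells (37.1 ± 33.3) had intermediate means, and astrocytes (21.2 ± 5.95) and ependymal cells (8.55 ± 2.48) low ones.

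Against the mean of the other classes, Ncoa3 was higher in microglia by 1.76 ± 0.14 (edgeR, adjusted p = 2.67e-16), in arterial smooth muscle by 1.58 ± 0.19 (adjusted p = 4.89e-10) and in ECs by 0.68 ± 0.16 (adjusted p = 0.000335). Against the pooled other gated cells the EC difference was 0.16 with a 95% interval of -0.14 to 0.46 (adjusted p = 0.361) and was not called. Relative to the mean of the other classes, Ncoa3 was lower in ependymal cells (-2.42 ± 0.48, adjusted p = 2.74e-05) and choroid plexus (-1.44 ± 0.21, adjusted p = 3.08e-08). Between ECs and microglia directly the log2 difference was -0.94 ± 0.14 (adjusted p = 6.42e-06), lower in ECs.

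Ncoa2 (ENSMUSG00000005886, chr1:13139105-13374083, minus strand), also known as GRIP1, overlaps Gm38376 and further annotated genes on the same strand. Ncoa2 had its highest means in astrocytes, at 49.4 ± 18.1 CPM, and T cells, at 45.9 ± 22.7, on 27 and 12 UMIs. It was at 44.9 ± 7.28 CPM in ECs, 41.7 ± 7.42 in microglia and 40.8 ± 6.41 in pericytes. Ependymal cells were at 39.7 ± 16.7, fibroblasts at 28.5 ± 24.9, arterial smooth muscle at 21.7 ± 3.92 and choroid plexus at 13.9 ± 4.19. All of these classes but the last 2 overlapped ECs over the libraries. Between ECs and microglia the difference was -0.22 with a 95% interval of -0.54 to 0.10 (edgeR, adjusted p = 0.239). Against the mean of the other classes it was higher in microglia (0.61 ± 0.16, adjusted p = 0.000677), which DESeq2 did not call (0.38, adjusted p = 0.0563). It was lower in choroid plexus (-0.72 ± 0.19, adjusted p = 0.000690), a call lost without CSD 1 (-0.40, adjusted p = 0.115).

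The make-up of the 3 coactivators was then taken within each class and library, as a share of their summed UMIs. Ncoa1 made up 44.2% ± 2.11 in ECs, 16.98% ± 3.06 in microglia, 23.3% ± 4.48 in arterial smooth muscle and 58.2% ± 3.16 in choroid plexus. Ncoa3 made up 30.5% ± 3.88 in ECs, 55.2% ± 1.93 in microglia, 60.3% ± 5.99 in arterial smooth muscle and 15.01% ± 4.83 in choroid plexus. Ncoa2 made up 25.3% ± 3.43 in ECs, 27.8% ± 2.99 in microglia and 26.7% ± 7.20 in choroid plexus. Microglia exceeded ECs in the Ncoa3 share in 4 of 4 libraries, by 24.7 ± 3.05 percentage points, and arterial smooth muscle did so by 29.8 ± 6.64. ECs exceeded choroid plexus by 15.5 ± 2.22 points in 4 of 4. In free RNA, Ncoa1 made up 54.7, 59.2, 47.3 and 55.8% in CSD 1, CSD 2, HC 1 and HC 2, and Ncoa3 20.9, 18.3, 26.2 and 16.7%. Choroid plexus, where Ncoa1 and Ncoa3 lay below free RNA, was close to this make-up, and the part of free RNA in it was not tested. Each exact paired permutation test gave p = 0.125, the smallest with 4 libraries, and the adjusted p over the 8 such comparisons of coactivator shares made was 0.125 too.

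**Figure D4:**
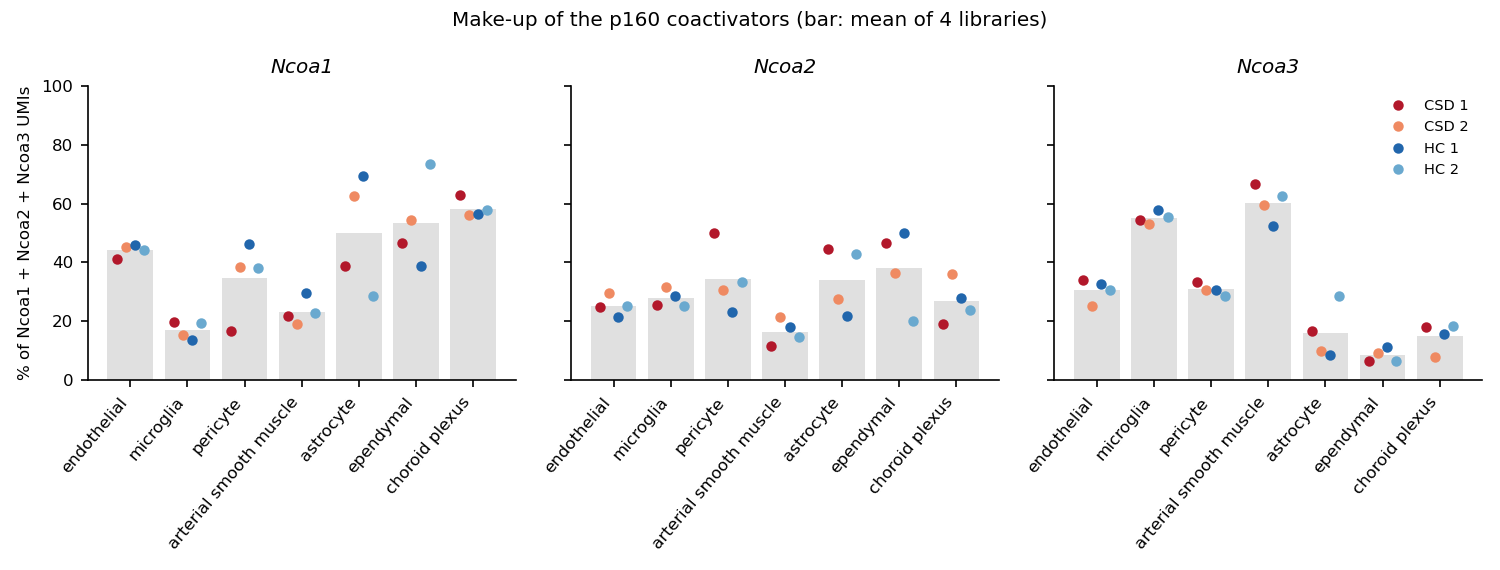
The share of each coactivator among the UMIs of Ncoa1, Ncoa2 and Ncoa3 in percent (vertical axis) in the 7 classes with at least 59 such UMIs (horizontal axis). Bars are means of 4 libraries and points are libraries. Ncoa3 made up 55.2% in microglia and 60.3% in arterial smooth muscle, and Ncoa1 58.2% in choroid plexus.

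Within the endothelium, 3951 capillary and 102 arterial ECs had at least 10 cells in every library. Nr3c1 was at 223 ± 20.01 CPM in capillary and 209 ± 66.3 in arterial ECs, and Nr3c2 at 17.8 ± 3.37 and 18.5 ± 26.4, the latter from 4 UMIs. Ncoa1 was at 83.4 ± 9.81 in capillary and 35.8 ± 3.34 in arterial ECs, and Ncoa3 at 56.6 ± 7.64 and 26.3 ± 8.60. The capillary and arterial libraries did not overlap for Ncoa1 or Ncoa3, but the arterial values rest on 1 or 2 UMIs per library and were not tested. The 35 venous ECs held 8 Nr3c1 UMIs and 0 of Nr3c2.

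The 7 gated classes with too few cells to compare held few UMIs of these genes. Nr3c1 gave 47 UMIs in 96 border-associated macrophages, 28 in 43 oligodendrocyte precursors, 18 in 25 oligodendrocytes, 7 in 34 B cells, 3 in 17 monocytes, 1 in 14 neutrophils and 0 in 17 neurons. Nr3c2 gave 2 UMIs each in border-associated macrophages and oligodendrocyte precursors, and Hsd11b1 gave 4 in neutrophils and 1 in border-associated macrophages.

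The design asks whether CSD changed these genes. None of them passed the threshold in any class. Over 11 classes and subtypes, 27 of the 77 pairs of gene and class had enough UMIs to be tested. Of these, 0 of 27 were called by edgeR or by DESeq2, and 0 of 27 had an unadjusted p under 0.05 by either. Over all genes, 838 of 9890 in ECs and 825 of 9178 in capillary ECs had such a p in edgeR. In microglia it was 134 of 9896 and in choroid plexus 351 of 10640. Calls were rare among all genes too, at 0.0708% of genes in ECs, 0.305% in capillary ECs, 0.0752% in choroid plexus, 0.628% in astrocytes, 0.043% in pericytes and 0% in microglia and the remaining 5 classes. The log2 differences ran from -0.52 (Nr3c2, choroid plexus) to 0.29 (Ncoa2, ECs), 19 of them lower in CSD. Of the 19, 4 were in ECs, 4 in capillary ECs and 1 in arterial ECs, and the capillary and arterial cells are also among the ECs. In the classes with such tests, from 49.58% (capillary ECs) to 51.45% (arterial smooth muscle) of all genes lay above 0.

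In ECs Nr3c1 stood at 197 and 217 CPM in the CSD libraries and 253 and 251 in the HC libraries. The 2 CSD values lay below the 2 HC values, a log2 difference of -0.22 ± 0.14 with a 95% interval of -0.55 to 0.11 (edgeR, adjusted p = 0.741). Nr3c2 in ECs did not overlap either, and 2 of the 5 genes tested were lower in both CSD libraries, but so were 25.4% of all genes in ECs. With the TMM scaling of the tests, Nr3c1 stayed apart in this way, the Nr3c2 groups overlapped and Ncoa2 was higher in both CSD libraries. The log2 difference of Nr3c2 was -0.06 (interval -0.61 to 0.49). Ncoa1 (-0.02, interval -0.40 to 0.36), Ncoa2 (0.29, -0.14 to 0.72) and Ncoa3 (-0.07, -0.48 to 0.33) overlapped between groups in CPM.

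In capillary ECs, Nr3c1 (-0.12), Nr3c2 (-0.42) and Ncoa1 (-0.15) were lower in both CSD libraries, as were 24.1% of all genes, and Ncoa2 (0.24) was higher in both, as were 16% of all genes. With TMM scaling Nr3c2 and Ncoa2 stayed apart, while Nr3c1 and Ncoa1 overlapped. In edgeR their adjusted p ranged from 0.754 to 0.891. In arterial smooth muscle Ncoa1 was lower in both CSD libraries (-0.49 ± 0.41, adjusted p = 0.9999), as were 13.1% of all genes. In microglia, Nr3c1 had a log2 difference of -0.03 with an interval of -0.62 to 0.56, and the groups overlapped for all 5 genes tested. The Nr3c1 interval in choroid plexus was -0.48 to 0.37.

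Whether the CSD effect differed between ECs and microglia was tested as an interaction in edgeR, and 0 of 5 genes passed (Nr3c1 -0.20, 95% interval -0.91 to 0.52, adjusted p = 1). Of all 11178 genes 0% passed, with 357 at an unadjusted p under 0.05 but none of these 5, and DESeq2 called 0 of the 5 genes. On simulated counts this test recovered 22% of 200 genes changed 4-fold in CSD ECs, so with such counts it could miss most differences of that size. The simulation used a common profile for all classes and a fixed spread between libraries, neither fitted to the 5 genes, so its share is not theirs. Of their 95% intervals the widest was that of Nr3c2, from -1.40 to 1.11.

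**Figure D5:**
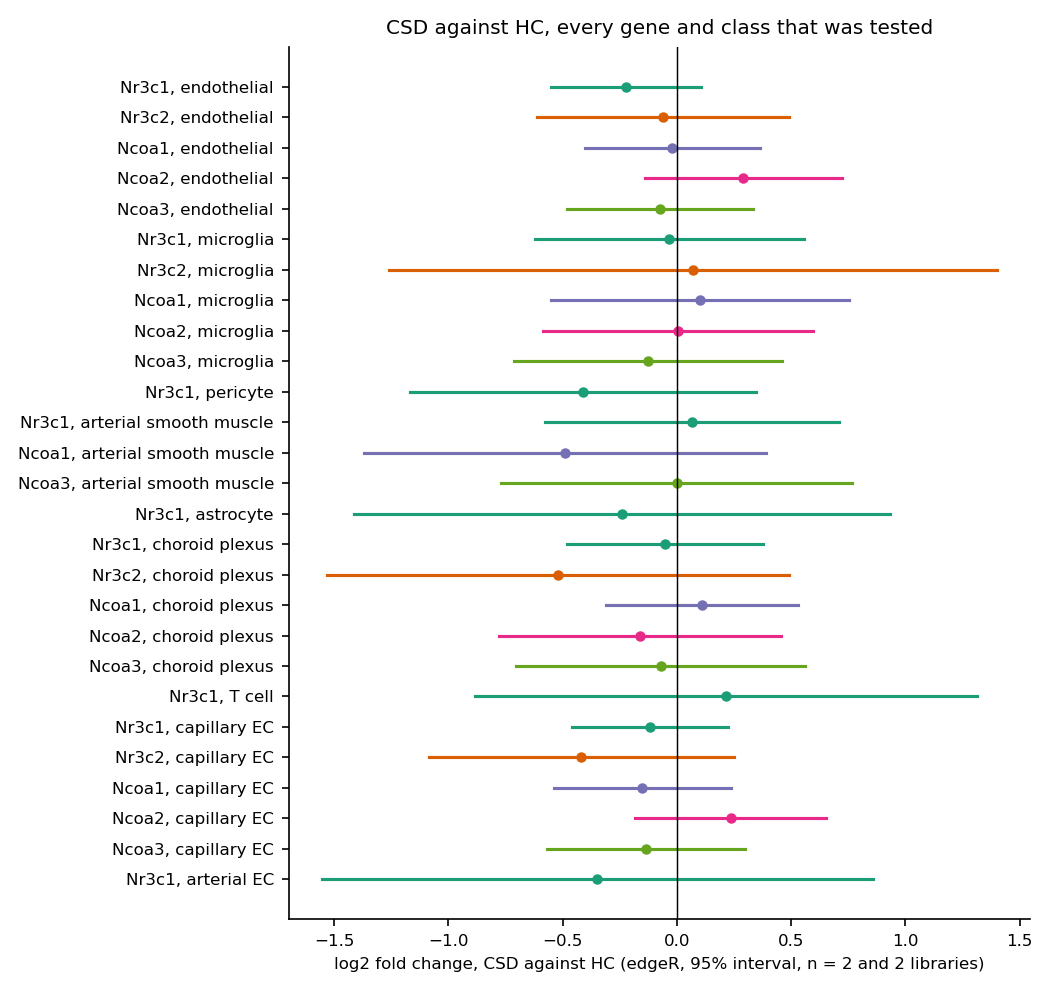
The log2 fold change of CSD against HC (horizontal axis) with its 95% interval from edgeR, for each of the 27 pairs of gene and class that were tested (vertical axis), n = 2 libraries per group. Every interval contains 0, and that of Nr3c1 runs from -0.55 to 0.11 in ECs and from -0.46 to 0.23 in capillary ECs.

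The share of ECs with Nr3c1 at 1000 UMIs was 16.9% and 19.3% in CSD against 22.2% and 20.8% in HC, a difference of -3.42 percentage points (exact permutation p = 0.333, the smallest for 2 against 2). Unthinned, the difference was -1.21 points and the groups overlapped. The Nr3c2 share of receptor UMIs in ECs was 8.28% ± 0.853 in CSD and 7.44% ± 0.0516 in HC (exact permutation p = 0.333). In capillary ECs alone it went the other way, at 6.66% ± 0.428 in CSD and 8.07% ± 0.130 in HC (exact permutation p = 0.333). In microglia it was 2.20% ± 0.600 and 2.08% ± 1.19 (exact permutation p = 1).

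Of the 50 pairs of gene and class with too few UMIs for the filtered test, 10 did not overlap between the groups in CPM, 5 higher and 5 lower in CSD. The share among all genes with so few UMIs was not computed, so this count has no like background. The shares given below are of genes that passed the filter. Hsd11b1 was among the 10. In fibroblasts the 2 CSD values lay under the 2 HC values, on 4 UMIs against 13, as did those of 20.3% of the genes tested there. In T cells the CSD values were likewise the lower ones, on 2 UMIs against 9, as were those of 22.6% of the genes tested there. With no filter on low counts the fibroblast difference was -1.55 ± 0.90 (edgeR, adjusted p = 0.883) and the T cell difference -2.11 ± 1.06 (adjusted p = 0.892). Astrocytes overlapped, with a difference of 0.03 ± 0.65 (adjusted p = 0.993). Nr3c2 in pericytes, at 29.4, 31.9, 20.9 and 6.48 CPM in CSD 1, CSD 2, HC 1 and HC 2, was higher in both CSD libraries, as were 14% of the genes tested there, and rests on 11 UMIs.

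Nr3c1 in ependymal cells, which line the ventricles, was at 72.9, 60.1, 27.9 and 6.11 CPM in those libraries, from 9, 5, 7 and 1 UMIs. Both CSD values lay above both HC values, the reverse of ECs, and with no filter on low counts the log2 difference was 1.64 ± 0.67 (edgeR, adjusted p = 0.961, unadjusted p = 0.0144). Ncoa2 (means 52.4 against 27.1 CPM) and Ncoa3 (10.1 against 7.03 CPM) did so too in ependymal cells, as did 17.1% of the genes tested there, and the Ncoa3 groups overlapped with TMM scaling. Nr3c2 in astrocytes (means 18.97 against 11.7 CPM) was higher in both CSD libraries on 9 UMIs, as were 13.3% of the genes tested there. Ncoa3 in T cells (means 9.03 against 65.2 CPM, 9 UMIs) was lower in both CSD libraries, as were 22.6% of the genes tested there. Hsd11b1 in ECs (means 1.28 against 2.76 CPM, 15 UMIs) was lower too, as were 25.4% of the genes tested there. So was Nr3c2 in arterial ECs (0 UMIs in CSD, 4 in HC), as were 13.6% of the genes tested there. None of the 10 was called by edgeR with no filter. Unadjusted p was under 0.05 there for 3 of them, Nr3c1 in ependymal cells and Hsd11b1 and Ncoa3 in T cells. The like share over all genes with no filter is not given here.

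Around these genes, lists of receptor chaperones, other coactivators, corepressors, steroid access and metabolism, other steroid receptors and glucocorticoid-induced genes were followed in the same CSD against HC tests. Of the 15 receptor chaperones, 15 were tested in ECs and 0 were called, with 13 above 0 and a median log2 difference of 0.39 against 0.00 over all genes. Of 15 coactivators tested in ECs (median -0.06), 10 corepressors (0.07), 4 genes of steroid access (-0.18) and 2 other steroid receptors (0.51), 0 were called.

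The 20 glucocorticoid-induced genes were chosen with earlier results of these data known, so their counts are no independent support. In ECs 17 were tested and 1 was called, with 17 above 0 and a median of 0.79, while 50.4% of all genes were above 0. In microglia 16 were tested, 16 lay above 0 and 0 were called (median 0.41). In choroid plexus 15 were tested, 12 lay above 0 and 0 were called (median 0.24). In the other classes apart from capillary ECs, 0 genes of these lists were called.

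The gene called in ECs was Cdkn1a, which encodes the cell cycle inhibitor p21, at 601 and 729 CPM in CSD against 229 and 257 in HC (log2 difference 1.52 ± 0.16, edgeR, adjusted p = 0.0143). In capillary ECs Cdkn1a (1.51 ± 0.17, adjusted p = 0.00370), the mTOR inhibitor Ddit4 (0.997 ± 0.17, adjusted p = 0.0354), Fam107a (1.05 ± 0.18, adjusted p = 0.0354) and the kinase Map3k6 (1.33 ± 0.21, adjusted p = 0.0275) were called higher, 4 of 17 tested. Of these calls, Cdkn1a in ECs was lost without HC 1 (adjusted p = 0.282) or HC 2 (0.190), Ddit4 (0.123) and Map3k6 (0.103) without HC 2, and Fam107a without HC 1 (0.0903). With at least 1000 UMIs per cell Ddit4 (0.0533), Fam107a (0.119) and Map3k6 (0.0795) were not called, nor was Cdkn1a in ECs without the filter (0.136), all by edgeR's adjusted p. The list was not chosen independently of these data.

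For the 5 genes with at least 200 UMIs, the genes most like them in pattern were sought by Pearson's r over the 9 class means of log2(CPM + 10), among 10531 genes. Nr3c1 was most like Arhgdia (0.952), Cr1l (0.949) and Phrf1 (0.944). Nr3c2 was most like Pigc (0.970), Agrn (0.965) and Rarg (0.955), and Ncoa1 like Cecr2 (0.965), Dennd4c (0.953) and Nhsl1 (0.952). Ncoa2 was most like Synrg (0.963), Phb2 (0.953) and Zufsp (0.947), and Ncoa3 like Rassf1 (0.956), Pold4 (0.955) and Bach1 (0.942). These are descriptions over 9 points from the same 4 libraries, with the best of many genes taken.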

How the data were processed

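Single-cell RNA sequencing (10x Genomics 3′ kit, version 3.1) was analysed from 4 libraries, each of 4 pooled mice. The authors deposited raw UMI counts for every gene in every barcode, with neither normalization nor cell calling. The submitters' processing notes name Cell Ranger 4.0 with GRCm38, the paper another version, and the matrix header 3.1.0. Ensembl IDs and positions are from GENCODE for GRCm38.

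A cell had at least 500 UMIs, at least 250 genes and at most 25% mitochondrial UMIs. It was gated to the class with the most of 8 markers detected, if these were at least 3 and at least 2 times those of the next class. Mixed cells, which include doublets, were left out, and no doublet caller was run. EC subtypes needed 2 markers. UMIs were summed per library and class and tested by quasi-likelihood (glmQLFTest) in edgeR 4.0.16, after filterByExpr and TMM scaling. Tests were two-sided, and p-values were adjusted by Benjamini-Hochberg across the genes tested, with a threshold of 0.05. Comparisons of classes had library as a term. Fits against pooled cells and between pairs of classes were added after the data had been seen. Intervals of shares are exact (Clopper-Pearson, 95%), and a count of 0 over the 4 libraries of a class was read as allowing 3. Tests were tried on simulated counts, where the CSD test recovered 59% of 100 genes changed 2-fold in ECs (9860 genes) and 19% in microglia (9849 genes).

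All 7 genes were to be named in every class, and levels are given for the 9 classes compared. List genes are named where called, up to 5 a list and class, and the 3 most alike genes by correlation. The genes and lists were chosen with earlier results of these data known. Alternatives were RLE scaling, no filter, DESeq2 1.42.0, a replicate block, at least 1000 UMIs, a complexity limit of 0.8, a stricter gate (at least 4 markers, at most 1 of another class) and each library left out. All columns were used.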

Additional observations from a re-analysis of the deposited data

Results flagged for a closer look

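Hsd11b1 appeared in barcodes that no comparison used. Among the 2400 cells that passed the filters but were not gated, Hsd11b1 gave 47 UMIs in 35 cells. Of the ungated cells, 1667 had at least 3 markers of a class but too many of another. Unthinned, the mean share of positive cells was 1.66% ± 0.929 among the ungated, against 0.668% ± 0.296 of gated cells. Thinned to 1000 UMIs, which left out 713 ungated and 3260 gated cells, the shares were 0.616% ± 0.250 and 0.332% ± 0.0960. The level of Hsd11b1 was 3.12 ± 1.83 CPM against 2.67 ± 1.67. In barcodes of 10 to 100 UMIs it stood at 14.1 CPM in CSD 1, 21.7 in CSD 2, 9.07 in HC 1 and 13.5 in HC 2, above the level in the gated cells of each library. CSD 2, with the highest value, also held the most astrocytes, at 5.99% of its cells against 1.67 to 1.72% in the other libraries, and the part of these cells in the free RNA was not tested. In the neutrophil class, which had too few cells to be compared, Hsd11b1 gave 4 UMIs in 3 of 14 cells over all libraries, where a count of 0 over the same cells allows 3. Each of CSD 1 and HC 2 held 2 of them, which is under 3 in either library alone.

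Some genes separated CSD from HC in opposite directions in different classes, all in CPM and with the difference between classes not tested. Nr3c1 was higher in both CSD libraries in ependymal cells, by 49.5 CPM, and lower in ECs (-45.5) and capillary ECs (-26.4). Nr3c2 was higher in pericytes (16.9) and astrocytes (7.22), and lower in ECs (-1.69), capillary ECs (-5.79) and arterial ECs (-36.98). Ncoa3 was higher in ependymal cells (3.02) and lower in T cells (-56.2). Such separation was common among all genes tested. Lower in both CSD libraries were 25.4% of genes in ECs, 24.1% in capillary ECs, 22.6% in T cells and 13.6% in arterial ECs. Higher in both were 17.1% in ependymal cells, 14% in pericytes and 13.3% in astrocytes. With TMM scaling the groups overlapped for Nr3c1 in capillary ECs, Nr3c2 in ECs and Ncoa3 in ependymal cells. The ependymal, pericyte, astrocyte, T cell and arterial EC values rest on at most 22 UMIs of a gene.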

How the results depend on the processing

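No gene of the 7 was called between CSD and HC, or in the interaction, under any of the alternatives run. Without the filter, 3 of 66 edgeR tests had an unadjusted p under 0.05, and the like share over all genes in that setting is not given. The replicate numbers gave only 2 pairs and were not used to pair the libraries in the main tests. Correlations of same-numbered deviations were above 0 in every class but arterial smooth muscle (-0.00218). They were 0.414 in microglia, 0.228 in fibroblasts, 0.227 in pericytes and 0.0636 in ECs, and whether same-numbered libraries share an effect was not tested. A replicate block called 0 tests of the 7 genes. A list gene counts once in each class that called it, so Cdkn1a counts in both ECs and capillary ECs. Counted so over all classes, the number of list gene tests past the threshold was 24 with the block, against 5 without it. That number was 23 without the filter, 17 with DESeq2, 2 with at least 1000 UMIs and 6 to 43 when 1 library was left out, highest without CSD 1 (38) and CSD 2 (43). In ECs the uncalled Nr3c2 difference changed sign at 1000 UMIs (0.17). With 1 library left out it ran from -0.13 to 0.012, Ncoa1 from -0.16 to 0.10 and Ncoa3 from -0.23 to 0.078 in ECs, and Nr3c1 from -0.16 to 0.088 in microglia.

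Against the mean of the other classes 18 of 45 tests were called, where from 15.4% to 61.7% of all genes were called, depending on the class. Of the 18, 3 were of Hsd11b1, which passed the filter through the classes where it was called. The count was 17 to 23 under the alternatives other than the stricter gate. With that gate it was 4 of 9 tested, where fewer genes passed the filter. Against pooled cells, where from 11.5% to 74.3% of all genes were called, 24 calls over 6 genes and 9 classes became 20 to 22. Between pairs, where from 57.7% to 74.2% of all genes were called, 14 became 11 to 14. Those 14 include Hsd11b1 in ECs (15 UMIs) and in microglia (13 UMIs), each against choroid plexus (1 UMI). In both pairs Hsd11b1 passed the filter through the class where it was higher. The fibroblast fit against pooled cells could not be run with the stricter gate, which left a library without fibroblasts. Ncoa1 in microglia against choroid plexus turned from -0.74 to 0.28 with that gate (edgeR, adjusted p = 0.648). Nr3c1 against pooled cells moved from 1.06 to 0.32 in ECs (adjusted p = 0.103) and from 0.91 to 0.29 in microglia (adjusted p = 0.136). The same gate cut choroid plexus, which gave these pools the most UMIs, in every library. It fell from 4843905 to 154142 UMIs in CSD 1 and from 6465949 to 520423 in HC 2. The EC receptor share was 8.78% with the stricter gate. Thinning to 500 UMIs gave 10.52% of ECs and 7.86% of microglia with Nr3c1, and no thinning 26.7% and 33.4%. The causes of these changes were not tested. With 2 libraries per condition, changes of 2-fold could be missed, since 59% of simulated ones were recovered in ECs and 19% in microglia.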
